A study of Homo sapiens with 6 samples.

Results

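The genes described here code for the chaperones that fold proteins in the cytosol and the mitochondria, with the heat shock factors and cochaperones that work with them. They were chosen by gene symbol from 9 groups of relatives. The 42 symbols matched 43 of the 58735 rows of the deposited gene count table, because HSPA14 names 2 rows (ENSG00000187522 and ENSG00000284024). All 43 rows had enough reads to be tested.

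SW1990 is an established human cell line of pancreatic ductal adenocarcinoma. The tested cells were given 5 µM EPZ-5676, a small molecule that inhibits DOT1L, the histone methyltransferase that modifies histone H3 lysine 79 in the bodies of transcribed genes (3 libraries). The controls received neither compound nor, by the sample characteristics, any treatment, while the treatment protocol gives them the solvent DMSO in the same volume (3 libraries). How long the cells were treated is not stated in the labels. The labels also do not say whether the replicates were separate cultures, and the p-values cover only the differences among these 6 libraries, which can be technical. The group comparison addresses which genes differ in mRNA level when DOT1L is inhibited.

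Chaperones bind unfolded or partly folded proteins and keep them from clumping. Hsp70 proteins hold short hydrophobic stretches and are driven by J-domain proteins, which trigger ATP hydrolysis, and by exchange factors such as the Hsp110 proteins. Hsp90 acts later on client proteins such as kinases and steroid receptors, while the chaperonins, TRiC in the cytosol and Hsp60 in the mitochondrial matrix, enclose a protein in a chamber. Heat shock factors are transcription factors that bind the heat shock element, a repeat of the letters GAA and their complement TTC, in the promoters of many of these genes.

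Reads assigned to genes numbered 33970420, 34980138 and 39749648 in the EPZ-5676-treated libraries, against 38132352, 35042563 and 35568711 in the controls. Levels are given as CPM, the reads of a gene scaled to a fixed library total, with TMM scaling. Of the ductal and epithelial markers, KRT8 had 3095 to 3974 CPM in treated and 2418 to 2832 CPM in control libraries, and KRT18 had 1356 to 1732 CPM in treated and 1142 to 1283 CPM in control libraries. KRT7 had 2034 to 2592 CPM in treated and 1752 to 2011 CPM in control libraries. CLDN4 had 105 to 135 CPM in treated and 86.8 to 97.1 CPM in control libraries. MUC1 had 29.3 to 40.8 CPM in treated and 22.7 to 39.7 CPM in control libraries. EPCAM was low, with 0.656 to 1.37 CPM in treated and 1.43 to 2.59 CPM in control libraries. CDH1, which codes for E-cadherin, had 0 reads in all 6 libraries, and KRT19 was at most 0.612 CPM in treated and 0.744 CPM in control libraries, so these defining markers were absent or nearly so. All 6 acinar markers had 0 reads in each library. The summed level of the 6 fibroblast markers was 93.9 to 100 CPM in treated and 83.9 to 93.8 CPM in control libraries, and that of the 6 immune markers was 3.85 to 5.82 CPM in treated and 2.29 to 10.3 CPM in control libraries. Within the fibroblast list COL1A1 had 56.3 to 64.6 CPM in treated and 35.9 to 50.8 CPM in control libraries, whereas DCN had 23.3 to 25.9 CPM in treated and 27.2 to 37.2 CPM in control libraries, and LUM had 1.29 to 2.34 CPM in treated and 3.55 to 3.92 CPM in control libraries. The part of these markers in the results below was not tested.

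More chaperone genes fell than rose with EPZ-5676. Of the 43 members, 21 fell, 4 rose and 18 did not pass the test (edgeR's quasi-likelihood test, Benjamini-Hochberg adjusted p under 0.05 over 15496 genes). Of all tested genes, 18.7% were lower and 15.0% higher by the same rule. The members' median log2 fold change was -0.37, against -0.05 for all tested genes. Together the members took 7446, 7227 and 7101 CPM in treated libraries, against 8782, 7971 and 7581 CPM in controls. The summed values did not overlap, and control 1 was the highest. With CPM corrected for GC content and length, as described below, they were 7574, 7251 and 7173 in treated libraries, against 8464, 7915 and 7385 in controls, and the groups overlapped. All 3 treated libraries lay below all 3 controls for 24 members and above them for 7, with 12 overlapping, while 24.2% of all tested genes lay wholly below and 21.8% wholly above. Without control 1, 17 members were lower, and 2 were higher without control 1, control 3, treated replicate 1 or treated replicate 2. Over all genes, 1753 were lower without control 1, and 1884 were lower and 1350 higher without treated replicate 1. In bulk RNA, a smaller share of cells expressing a gene and less of its RNA per cell cannot be told apart.

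The changes of the members ran with the GC content of their transcripts, and so did those of the whole transcriptome. Across the 43 members the log2 fold change and the GC content of the longest transcript had a Pearson r of 0.85 and a Spearman rho of 0.84, given as a description, since the members share the same 6 libraries. Across 15487 genes, which are not independent replicates, r was 0.59 and rho 0.66. When tested genes were ordered by GC content and split into 10 equal classes, 21 members fell in the 4 classes poorest in GC and 19 of them were lower, against 40.1% of the 6195 genes of those classes. The 4 members that rose lay in the 5 GC-richest classes. The median GC content was 43.5% for members that fell, 52.5% for those that did not pass and 57.5% for those that rose. GC content thus moved with the direction of change, and an effect of the drug that follows GC content cannot be told apart from a difference between libraries that does.

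For this reason changes are also given after a GC and length correction, which takes from every library the smooth trend of its log2 CPM on transcript GC content and length, and takes with it any drug effect that follows these properties. With it, 11 members were lower and 1 was higher, while 5.57% of 15487 genes were lower and 5.40% higher. The members' median became -0.17, against -0.0044 for all genes. The 9 members lower both ways were HSPD1, HSPE1, HSP90AA1, DNAJB4, DNAJB6, TCP1, CCT2, CCT5 and CCT8, and FKBP4 was higher both ways. HSPB1 and BAG3 were lower with the correction alone. The corrected count of lower members was 7 without control 1 or treated replicate 1 and 6 without treated replicate 2 or 3, and the call of FKBP4 was kept without control 2 and lost without each of the other libraries. Of the members, 34 lay below the median change of all genes in their GC class and 9 above it.

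**Figure D1:**
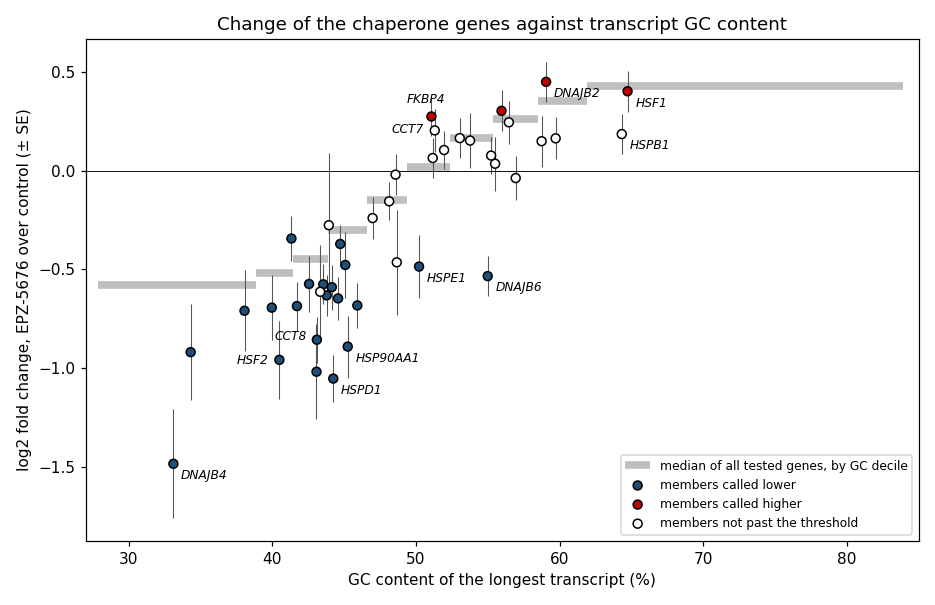
Log2 fold change of each member (EPZ-5676 over control, ± SE from edgeR) against the GC content of its longest transcript in percent, with grey bars for the median of all tested genes in each of 10 GC classes. The members follow the grey steps from low to high GC content, and 34 of the 43 lie below the step of their class, among them DNAJB4, HSPD1, HSP90AA1, HSPE1 and DNAJB6.

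**Figure D2:**
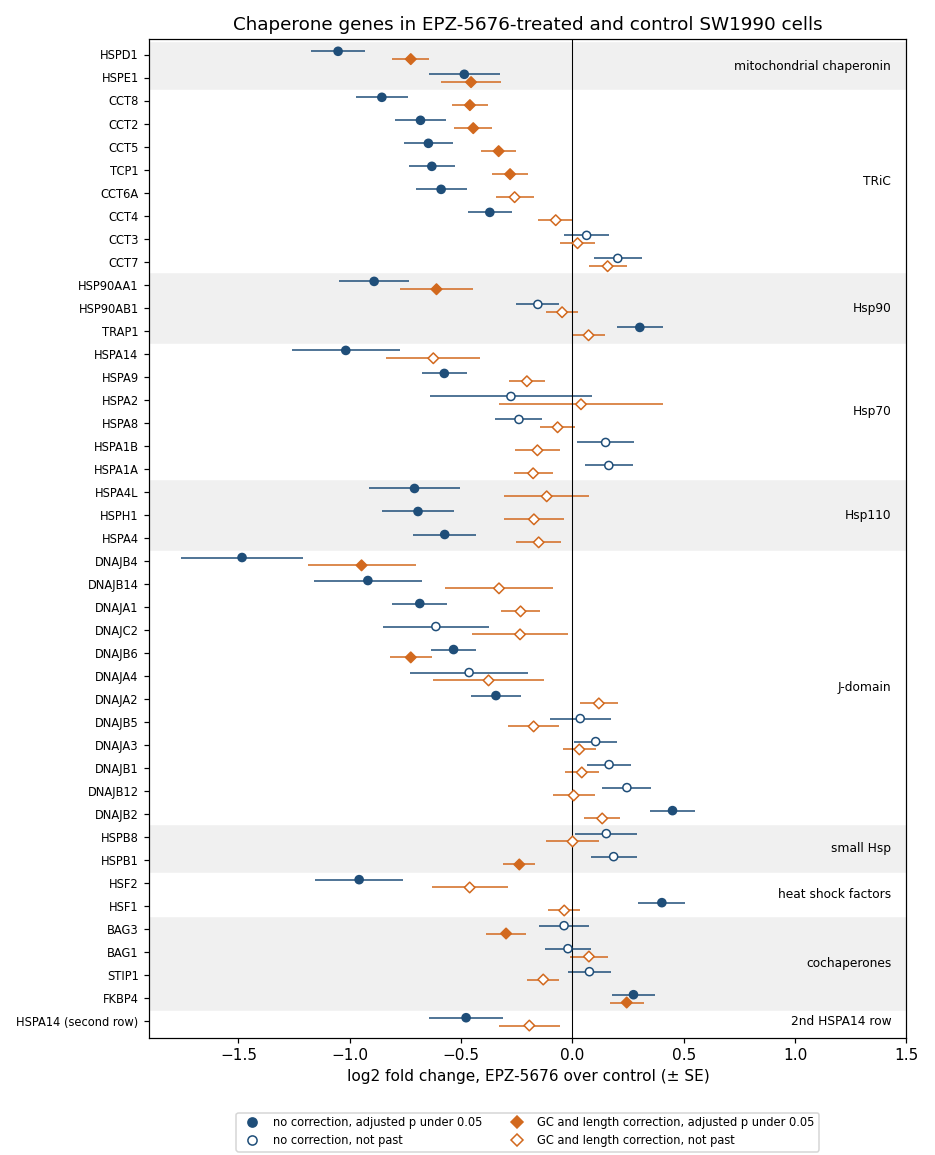
Log2 fold change of the 43 members (EPZ-5676 over control, ± SE) by family, without a correction (circles) and with the GC and length correction (diamonds), filled where the adjusted p was under 0.05. The mitochondrial chaperonin and most TRiC subunits lie left of 0 both ways, whereas the Hsp110 genes lie nearer to 0 with the correction.

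Because heat shock factors act through a defined DNA element, promoters were searched for 3 adjoining units of it, the letters GAANNTTCNNGAA or their reverse complement TTCNNGAANNTTC, in the RefSeq windows from 250 bases before to 50 after each annotated start (GRCh38.p14). Windows were at hand for 38 of the 42 symbols, and 6 symbols held a match (15.8%), against 0.608% of the 27305 symbols with a window. The letters CCAAT, searched on both strands as a comparison, were in 39.5% of the member symbols and 39.7% of all symbols. Of the 6 genes with a heat shock element match, HSPD1, HSP90AA1, DNAJA1 and DNAJB6 fell in treated cells and HSPA8 and HSP90AB1 did not pass the test. By the same rule 21 of the 43 members and 18.7% of all tested genes were lower. With the correction HSPD1, HSP90AA1 and DNAJB6 stayed lower, while DNAJA1 did not pass (-0.23, adjusted p = 0.0995, edgeR). Of all genes 5.57% were then lower. No match was found for the stress-inducible HSPA1A, HSPA1B and DNAJB1, nor for HSPH1 and HSPB1. The search takes only 3 exact units, so it misses elements with a changed letter and those outside the windows. A gene without a match may therefore still hold an element. The stretches are printed on the strand of the gene, because they are the sites shared by genes that did and did not change, and capitals mark the matched letters. A match is a description of the letters and not a measured binding site. In HSPD1 the capitals are 2 matches that overlap, and the stretch also lies within the annotated span of HSPE1. The printed stretches of HSPD1, HSP90AA1, DNAJA1 and HSPA8 lie within annotated exons. The match of DNAJA1 begins at base 4 after the annotated start.
HSPD1, chr2:197500062-197500090, minus strand: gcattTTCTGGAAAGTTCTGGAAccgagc
HSP90AA1, chr14:102087112-102087140, minus strand: gagggttcTTCCGGAAGGTTCgggaggct
DNAJA1, chr9:33025276-33025288, plus strand: GAACTTTCCAGAA
DNAJB6, chr7:157336857-157336901, plus strand: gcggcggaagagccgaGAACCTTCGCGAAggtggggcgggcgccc
HSPA8, chr11:123062346-123062374, minus strand: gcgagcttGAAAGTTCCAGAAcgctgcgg
HSPA8, chr11:123062171-123062199, minus strand: cgggccccTTCTGGAAGGTTCtaagatag
HSP90AB1, chr6:44247762-44247859, plus strand: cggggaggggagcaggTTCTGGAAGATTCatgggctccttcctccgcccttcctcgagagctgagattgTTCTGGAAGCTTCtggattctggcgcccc

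Both genes of the mitochondrial chaperonin fell. HSPD1 (ENSG00000144381, chr2:197486581-197516737 on the minus strand, GRCh38) codes for Hsp60, which forms the folding chamber. It had 134, 162 and 161 CPM in treated libraries, against 381, 279 and 288 CPM in controls. The groups lay far apart, with the lowest control well above the highest treated library. The log2 fold change was -1.05 ± 0.12 (SE, adjusted p = 1.58e-05, edgeR), or -0.73 ± 0.08 with the correction (adjusted p = 1.41e-05, edgeR). HSPD1 stayed lower in all 13 other settings without the correction and in all 8 with it. HSPE1 (ENSG00000115541, chr2:197499994-197503457 on the plus strand) codes for Hsp10, the lid of the chamber. It had 17.4, 13.2 and 13.9 CPM in treated libraries, against 22.8, 20.9 and 18.7 CPM in controls. The groups did not overlap, although the highest treated and the lowest control library came close. It changed by -0.49 ± 0.16 (adjusted p = 0.0224, edgeR), with -0.46 ± 0.13 after the correction (adjusted p = 0.0312, edgeR). The call for HSPE1 was lost without control 1 (adjusted p = 0.0929, edgeR), treated replicate 2 (0.0995) or treated replicate 3 (0.0905), and likewise with the correction (0.129, 0.148 and 0.107). The 2 genes lie head to head on opposite strands, and their annotated spans overlap. Since it is not stated whether the counting used strand, reads of HSPD1, which had 1333% as many as HSPE1, may be among those of HSPE1.

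The log2 ratio of HSPD1 to HSPE1 averaged 3.36 ± 0.37 in treated libraries and 3.92 ± 0.16 in controls (SD, n = 3 each), a difference of -0.55. The groups did not overlap, and the exact two-sided permutation test gave p = 0.1, the smallest that 3 against 3 libraries allow (0.133 adjusted over 4 pairs of relatives). It was -0.34 without treated replicate 1, and -0.26 with corrected CPM. Reads of the 26 annotated pseudogenes of HSPE1 came to 3.86% of its reads in treated and 2.96% in control libraries. Those of HSPD1 came to 0.821% in treated and 1.02% in control libraries. How reads that map to several places were counted is not stated, so these percentages set no bound on such reads.

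Of the cytosolic chaperonin TRiC, whose ring of 8 related subunits folds actin and tubulin, 6 subunit genes fell and CCT3 and CCT7 did not pass the test. By the same rule 18.7% of all tested genes were lower. The 6 that fell had 43.1% to 45.9% GC, against 51.2% for CCT3 and 51.3% for CCT7. In the GC classes of the 6, 38.7% and 26.5% of all genes were lower, against 5.81% in that of CCT3 and CCT7. CCT8 (ENSG00000156261, chr21:29055805-29073797) had the largest change of the 8. Its level was 116, 120 and 122 CPM in treated libraries, against 264, 191 and 193 CPM in controls. The treated libraries lay close together, while control 1 stood above the other controls. CCT8 changed by -0.86 ± 0.12 (adjusted p = 5.99e-05, edgeR) and -0.46 ± 0.08 with the correction (adjusted p = 0.000831, edgeR). CCT2 had 130, 139 and 145 CPM in treated libraries, against 267, 201 and 196 CPM in controls. CCT5 had 376, 405 and 412 CPM in treated libraries and 729, 564 and 573 CPM in controls. For both genes the groups were clearly separated and control 1 was again the highest. Their log2 fold changes were -0.68 ± 0.11 and -0.65 ± 0.11 (adjusted p = 0.000308 and 0.000332, edgeR). With the correction they were -0.45 and -0.33 (adjusted p = 0.00179 and 0.0092, edgeR). The corrected calls of CCT8 and CCT2 were kept without each library in turn, whereas that of CCT5 was lost without treated replicate 2 (adjusted p = 0.0515, edgeR).

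TCP1, which codes for the alpha subunit, had 140, 137 and 136 CPM in treated libraries, against 244, 203 and 192 CPM in controls. CCT6A had 117, 128 and 137 CPM in treated libraries, against 227, 183 and 165 CPM in controls. CCT4 had 244, 235 and 247 CPM in treated libraries, against 335, 318 and 287 CPM in controls. None of these 3 genes overlapped between the groups. Their log2 fold changes were -0.63 ± 0.10, -0.59 ± 0.11 and -0.37 ± 0.10 (adjusted p = 0.000281, 0.000854 and 0.00679, edgeR). With the correction TCP1 stayed lower (-0.28, adjusted p = 0.0251, edgeR), CCT6A missed the threshold (-0.26, 0.0533) and CCT4 was near 0 (-0.07, 0.614). The corrected call of TCP1 was lost without control 1 (0.0805), control 2 (0.0724), treated replicate 2 (0.107) or treated replicate 3 (0.112), while CCT6A passed without control 3 (0.00967).

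CCT7, the most expressed subunit per kilobase, had 713, 623 and 603 CPM in treated libraries, against 613, 573 and 497 CPM in controls. CCT3 had 683, 635 and 581 CPM in treated libraries, against 637, 621 and 559 CPM in controls. Both genes overlapped between the groups. Their log2 fold changes were 0.20 ± 0.11 and 0.06 ± 0.10 (adjusted p = 0.148 and 0.667, edgeR), and 0.16 and 0.02 with the correction (0.263 and 0.896).

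Since the subunits sit in 1 ring, their levels were also set side by side per kilobase of gene model, as shares of the summed level of the 8. CCT7 made up 29.0% ± 1.64 of this sum in treated libraries and 21.3% ± 0.847 in controls (SD, n = 3 each). CCT3 took 25.4% ± 1.29 in treated and 20.6% ± 1.20 in control libraries. CCT7 and CCT3 are also the subunits richest in GC (51.3% and 51.2%). The share of CCT8 was 5.77% ± 0.349 in treated libraries and 8.78% ± 0.814 in controls. CCT5 held 11.0% ± 0.875 in treated and 14.5% ± 0.896 in control libraries. The shares of TCP1, CCT2 and CCT6A were also lower in each treated library than in any control, and only that of CCT4 overlapped (13.8% ± 0.575 in treated libraries, 15.2% ± 0.657 in controls). With corrected CPM 6 of the 8 shares did not overlap, against 7 here. The shares of a library are parts of the same sum, so a fall of some raises the others. These counts are therefore not counts of separate changes. The summed level itself was 643, 613 and 603 CPM per kilobase in treated libraries, against 821, 715 and 662 in controls, without overlap. With corrected CPM the sums were 682, 629 and 629 in treated libraries, against 751, 698 and 627 in controls, and the groups overlapped.

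**Figure D3:**
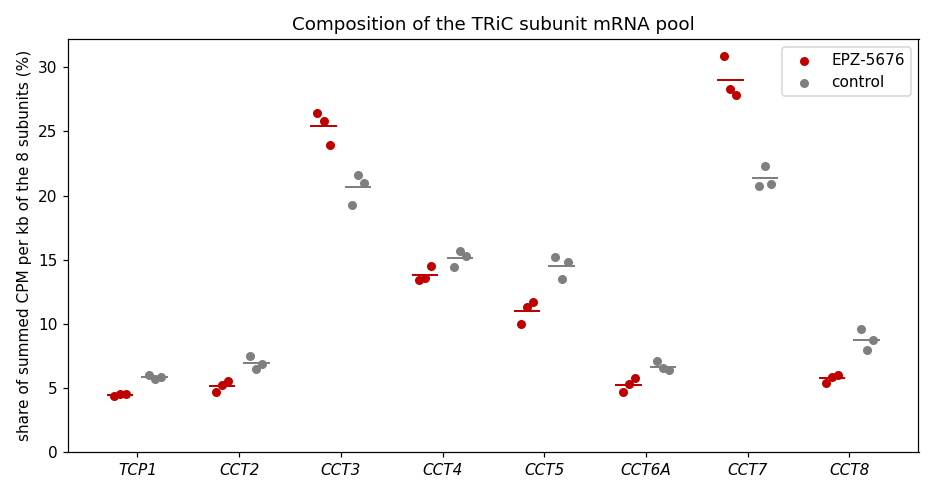
Share of each TRiC subunit in the summed CPM per kilobase of the 8 subunits, in percent, for the 3 EPZ-5676-treated (red) and the 3 control libraries (grey), with a line at each mean. CCT7 and CCT3 sit higher in treated libraries, CCT4 overlaps, and the other 5 subunits sit lower.

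Of the Hsp90 genes, HSP90AA1 fell, HSP90AB1 did not pass the test and TRAP1 rose. HSP90AA1 (ENSG00000080824, chr14:102080738-102139699 on the minus strand) codes for the inducible cytosolic form, and its promoter stretch is printed above. It had 118, 152 and 146 CPM in treated libraries, against 348, 204 and 220 CPM in controls. The groups did not overlap, and control 1 stood well above the other controls. The log2 fold change was -0.89 ± 0.16 (adjusted p = 0.000596, edgeR). Without control 1 it was -0.60 (adjusted p = 0.0129, edgeR). With the correction it was -0.61 ± 0.16 (adjusted p = 0.0477, edgeR), and that call was lost without treated replicate 1 (0.169) or treated replicate 3 (0.072), while the corrected value was -0.38 without control 1.

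HSP90AB1 codes for the constitutive cytosolic form. It had 1001, 976 and 1003 CPM in treated libraries, against 1129, 1113 and 1077 CPM in controls. The groups did not overlap, but the difference was small, with a log2 fold change of -0.16 ± 0.10 (adjusted p = 0.226, edgeR) and -0.05 with the correction (0.756). The log2 ratio of HSP90AA1 to HSP90AB1 averaged -2.85 ± 0.21 in treated libraries and -2.15 ± 0.40 in controls (SD, n = 3 each), a difference of -0.70. These ratios did not overlap (exact two-sided permutation p = 0.1, the smallest possible), and the difference was -0.54 with corrected CPM. TRAP1, the mitochondrial Hsp90, had 239, 217 and 209 CPM in treated libraries, against 173, 200 and 165 CPM in controls. Its log2 fold change was 0.30 ± 0.10 (adjusted p = 0.028, edgeR), and 0.07 with the correction (0.611). The call for TRAP1 was lost without control 1 (0.0666), control 3 (0.134), treated replicate 1 (0.11) or treated replicate 2 (0.056).

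**Figure D4:**
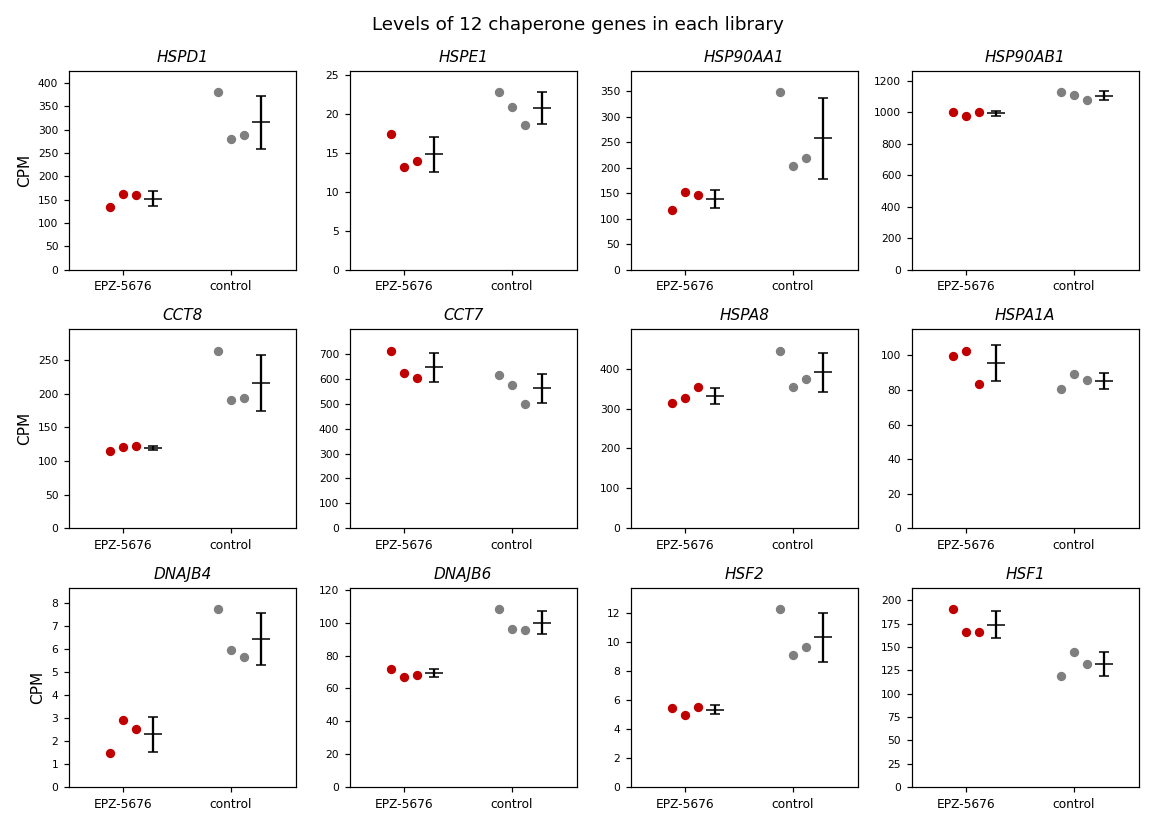
CPM of 12 members in the 3 EPZ-5676-treated (red) and the 3 control libraries (grey), each gene on its own axis from 0, with mean ± SD beside the points. HSPD1, HSPE1, HSP90AA1, HSP90AB1, CCT8, HSPA8, DNAJB4, DNAJB6 and HSF2 are lower in each treated library than in any control. Of these, HSP90AB1 and HSPA8 did not pass the test. CCT7 and HSPA1A overlap, and HSF1 is higher in the treated libraries.

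Of the 6 Hsp70 genes, HSPA9 and HSPA14 fell, and the other 4 did not pass the test. HSPA9 codes for mortalin, the Hsp70 of the mitochondrial matrix that also pulls in imported proteins. It had 118, 125 and 114 CPM in treated libraries, against 196, 165 and 171 CPM in controls, with no overlap. The log2 fold change was -0.58 ± 0.10 (adjusted p = 0.000442, edgeR). With the correction it was -0.20 (adjusted p = 0.109, edgeR). HSPA14 (ENSG00000187522), which codes for an Hsp70 relative bound to ribosomes, had 2.70, 3.59 and 3.46 CPM in treated libraries, against 7.69, 5.21 and 6.89 CPM in controls. These low levels did not overlap, and the log2 fold change was -1.02 ± 0.24 (adjusted p = 0.00337, edgeR), with -0.62 after the correction (0.0618).

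The second HSPA14 row (ENSG00000284024) overlaps the first on the same strand, so reads of either may have been assigned to the other, and a later name table calls it MSANTD7. It had 9.40, 11.0 and 10.9 CPM in treated libraries, against 14.6, 13.5 and 15.5 CPM in controls. Its log2 fold change was -0.48 ± 0.16 (adjusted p = 0.0297, edgeR), a call lost without control 1 (0.0728), control 3 (0.113), treated replicate 1 (0.116), treated replicate 2 (0.0554) or treated replicate 3 (0.0639). Leaving this row out gave 20 of 42 genes lower and 4 higher.

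HSPA8 codes for the constitutive cytosolic Hsp70 and had the highest level per kilobase of the family. It had 313, 325 and 353 CPM in treated libraries, against 445, 353 and 373 CPM in controls. The groups did not overlap, though the highest treated library came close to the lowest control. Its log2 fold change was -0.24 ± 0.11 (adjusted p = 0.0842, edgeR), and -0.07 with the correction (0.669). It passed without control 2 (-0.29, 0.0406), while without control 1 it was -0.12 (0.41). HSPA1A and HSPA1B are the stress-inducible Hsp70 genes and are nearly identical, so their reads were also summed. The sum was 151, 155 and 132 CPM in treated libraries, against 120, 145 and 127 CPM in controls. The groups overlapped, and the log2 fold change of the sum was 0.16 ± 0.11 (adjusted p = 0.260, edgeR), with -0.17 after the correction (0.204). Counted alone, HSPA1A had a log2 fold change of 0.16 ± 0.11 and HSPA1B one of 0.15 ± 0.13 (adjusted p = 0.252 and 0.396, edgeR), with -0.18 and -0.16 after the correction. HSPA1B passed without control 2 (0.34, adjusted p = 0.0335, edgeR). HSPA2 was low, at 1.47 ± 0.121 CPM in treated and 1.78 ± 0.640 CPM in control libraries (SD, n = 3 each).

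All 3 Hsp110 genes, which code for exchange factors of Hsp70, fell without the correction and none with it. HSPA4 had 35.0, 41.9 and 46.2 CPM in treated libraries, against 74.4, 47.7 and 61.3 CPM in controls. HSPH1 had 11.1, 11.3 and 10.7 CPM in treated libraries, against 20.0, 14.9 and 18.7 CPM in controls. HSPA4L had 8.30, 5.27 and 8.12 CPM in treated libraries, against 12.2, 9.59 and 13.7 CPM in controls. None of the 3 overlapped between the groups, and HSPA4 and HSPA4L came closest to it. The log2 fold changes were -0.57 ± 0.14, -0.69 ± 0.16 and -0.71 ± 0.21 (adjusted p = 0.00451, 0.00322 and 0.0119, edgeR). With the correction they were -0.15, -0.17 and -0.12 (adjusted p = 0.385, 0.475 and 0.77, edgeR). The call for HSPA4L was lost without control 3 (0.0773) or treated replicate 2 (0.0743).

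Among the 12 J-domain genes, 5 fell, DNAJB2 rose and 6 did not pass the test. DNAJB4 (ENSG00000162616, chr1:77979175-78017964) had the largest change of all members, at low levels. It had 1.45, 2.91 and 2.50 CPM in treated libraries, against 7.72, 5.92 and 5.63 CPM in controls. They were well apart, with a log2 fold change of -1.48 ± 0.27 (adjusted p = 0.000622, edgeR) and -0.95 ± 0.24 with the correction (0.0137). The corrected call was lost without control 1 (0.0683) or treated replicate 1 (0.062). DNAJB6 (ENSG00000105993, chr7:157335381-157417439), which codes for a chaperone that keeps polyglutamine proteins from aggregating, had 71.9, 67.1 and 68.4 CPM in treated libraries, against 108, 96.3 and 95.7 CPM in controls. The treated libraries lay within a narrow band well below the controls. Its log2 fold change was -0.53 ± 0.10 (adjusted p = 0.000807, edgeR). The correction moved it further from 0, to -0.73 ± 0.09 (adjusted p = 4.42e-05, edgeR), and DNAJB6 was lower in all 13 other settings without the correction and all 8 with it. At 55.0% GC, DNAJB6 lay in a GC class whose median log2 fold change was 0.16 and where 3.10% of genes were lower. This class and the corrected value of DNAJB6 rest on its longest annotated transcript (7992 bases). Whether these cells use that transcript was not tested. HSPE1, at 50.2% GC, was the other member that fell outside the 4 GC-poorest classes.

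DNAJA1, whose promoter stretch is printed above, codes for a major cytosolic partner of Hsp70. It had 42.1, 44.0 and 46.1 CPM in treated libraries, against 85.9, 61.8 and 65.1 CPM in controls. DNAJA2, its close relative, had 45.1, 48.9 and 49.2 CPM in treated libraries, against 68.1, 57.1 and 56.4 CPM in controls. Neither overlapped between the groups. Their log2 fold changes were -0.69 ± 0.12 and -0.34 ± 0.11 (adjusted p = 0.000505 and 0.0231, edgeR), and -0.23 and 0.12 with the correction (0.0995 and 0.438), so that of DNAJA2 turned round. The call for DNAJA2 was lost without control 1 (0.127), treated replicate 1 (0.0983), treated replicate 2 (0.0532) or treated replicate 3 (0.0608). DNAJB14, which codes for a J-domain protein of the endoplasmic reticulum membrane, had 4.73, 3.56 and 2.91 CPM in treated libraries, against 8.70, 6.27 and 6.14 CPM in controls. It fell by 0.92 ± 0.24 on the log2 scale (adjusted p = 0.00695, edgeR), a call lost without control 1 (0.0593) and with the correction (-0.33, 0.44). DNAJB2, a J-domain protein rich in neurons, had 228, 213 and 192 CPM in treated libraries, against 150, 167 and 147 CPM in controls. It was higher in each treated library than in any control, with a log2 fold change of 0.45 ± 0.10 (adjusted p = 0.00253, edgeR) and 0.13 with the correction (0.325).

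DNAJB1, the stress-inducible partner of Hsp70, averaged 135 ± 2.87 CPM in treated and 120 ± 9.68 CPM in control libraries (SD, n = 3 each), with a change of 0.16 ± 0.10 on the log2 scale (adjusted p = 0.212, edgeR) and 0.04 with the correction (0.797). DNAJA3, the mitochondrial J-domain protein, averaged 127 ± 5.48 CPM in treated and 118 ± 1.37 CPM in control libraries. DNAJA3, DNAJB1 and DNAJB12 were each higher in all treated libraries without passing the test, and DNAJB12, at 0.24 ± 0.11 (adjusted p = 0.091, edgeR), passed in DESeq2 (0.28, adjusted p = 0.0411). With the correction DNAJA3 was at 0.03 and DNAJB12 at 0.0058 (adjusted p = 0.849 and 0.979, edgeR). The other members that did not pass were DNAJA4 (-0.46 ± 0.27), DNAJB5 (0.04 ± 0.14) and DNAJC2 (-0.61 ± 0.24). DNAJC2, which codes for a ribosome-bound partner of HSPA14, just missed the threshold (adjusted p = 0.0516, edgeR) and passed in DESeq2 (0.0459), in a fit of protein-coding genes (0.0459) and with a mean CPM of at least 1 (0.047). Of the 13 other settings without the correction, DNAJC2 passed in these 3 alone. Without control 1 it was at -0.44 (adjusted p = 0.247, edgeR). With the correction DNAJA4 was at -0.38, DNAJB5 at -0.17 and DNAJC2 at -0.24 (adjusted p = 0.385, 0.376 and 0.559, edgeR). DNAJA4 and DNAJC2 overlap, on the opposite strand, genes with more reads than their own (WDR61 for DNAJA4, PSMC2 and PMPCB for DNAJC2), and DNAJB1 overlaps TECR. As for HSPE1, reads of these partners may be among theirs.

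The 2 small heat shock proteins, which hold unfolded proteins without ATP, did not pass the test. HSPB1, which codes for Hsp27, had 607, 525 and 514 CPM in treated libraries, against 453, 522 and 472 CPM in controls. The groups overlapped, with a log2 fold change of 0.19 ± 0.10 (adjusted p = 0.175, edgeR). With the correction it was -0.24 ± 0.07 (adjusted p = 0.0342, edgeR), a change of direction and of call, and the corrected call was lost without any 1 of the 6 libraries (adjusted p of 0.0598 to 0.16). HSPB8 averaged 24.9 ± 2.91 CPM in treated and 22.4 ± 0.524 CPM in control libraries (SD, n = 3 each).

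The 2 heat shock factor genes moved in opposite directions before the correction. HSF2 (ENSG00000025156, chr6:122399546-122433119) had 5.47, 4.96 and 5.51 CPM in treated libraries, against 12.3, 9.07 and 9.62 CPM in controls. HSF1, which codes for the main factor of the heat shock response, had 191, 166 and 166 CPM in treated libraries, against 119, 145 and 131 CPM in controls. Neither overlapped between the groups. The log2 fold change of HSF2 was -0.96 ± 0.20 (adjusted p = 0.00135, edgeR) and that of HSF1 0.40 ± 0.10 (adjusted p = 0.00629, edgeR). With the correction HSF2 was at -0.46 (0.0882) and HSF1 at -0.04 (0.814), so neither passed. HSF2 had 40.5% GC and HSF1 64.7%. The log2 ratio of HSF2 to HSF1 averaged -5.03 ± 0.11 in treated libraries and -3.68 ± 0.37 in controls (SD, n = 3 each), a difference of -1.35 (exact two-sided permutation p = 0.1, the smallest possible), or -0.42 with corrected CPM. HSF1 overlaps DGAT1 on the opposite strand, which had 32.1% as many reads.

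Of the 4 cochaperones, FKBP4 rose and the other 3 did not pass the test. FKBP4, an immunophilin that couples Hsp90 to steroid receptors, had 232, 229 and 209 CPM in treated libraries, against 181, 196 and 177 CPM in controls. The groups did not overlap. The log2 fold change was 0.27 ± 0.10 (adjusted p = 0.0344, edgeR) and 0.24 ± 0.08 with the correction (0.042). The call for FKBP4 was lost without control 1 (0.0628), control 3 (0.124), treated replicate 1 (0.0958), treated replicate 2 (0.11) or treated replicate 3 (0.0513), and the corrected call without the same libraries (0.0529 to 0.173). BAG1, an exchange factor of Hsp70, had 717, 664 and 642 CPM in treated libraries, against 756, 675 and 619 CPM in controls. STIP1, which hands clients from Hsp70 to Hsp90, averaged 179 ± 7.47 CPM in treated and 170 ± 4.60 CPM in control libraries (SD, n = 3 each). Both overlapped, with log2 fold changes of -0.02 ± 0.10 and 0.08 ± 0.10 (adjusted p = 0.901 and 0.57, edgeR), and 0.07 and -0.13 with the correction (0.663 and 0.277).

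BAG3, the stress-inducible relative of BAG1 that serves selective autophagy, had 67.4, 64.9 and 68.3 CPM in treated libraries, against 58.9, 70.9 and 76.2 CPM in controls. The groups overlapped (-0.04 ± 0.11, adjusted p = 0.827, edgeR). With the correction BAG3 was lower (-0.30 ± 0.09, adjusted p = 0.0337, edgeR), a call lost without control 2 (0.0509), control 3 (0.195), treated replicate 1 (0.134), treated replicate 2 (0.105) or treated replicate 3 (0.0822). The log2 ratio of BAG3 to BAG1 averaged -3.33 ± 0.09 in treated libraries and -3.32 ± 0.33 in controls (SD, n = 3 each; exact two-sided permutation p = 1). The difference was -0.01, with -0.19 without control 1, 0.13 without control 3 and -0.37 with corrected CPM (exact two-sided permutation p = 0.2).

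Compared per kilobase of gene model, the members spanned a wide range of levels. HSPB1 stood at 336 CPM per kilobase in treated and 295 in control libraries, and HSP90AB1 at 333 in treated and 371 in control libraries. CCT7 followed with 180 in treated and 156 in control libraries, and CCT3 with 158 in treated and 151 in control libraries. At the low end, HSPA2 had 0.254 CPM per kilobase in treated and 0.308 in control libraries, and DNAJB14 had 0.286 in treated and 0.538 in control libraries.

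A further 70 genes of the folding network (prefoldin, Hsp90 cochaperones, exchange factors and ligases of Hsp70, other J-domain proteins, mitochondrial proteases and import factors, helpers of TRiC, and 5 further genes related to heat shock factors or small heat shock proteins) were set beside the members. Of these, 69 could be tested, DNAJC28 having too few reads. A total of 23 were lower and 16 higher, against 18.7% and 15.0% of all tested genes, with a median log2 fold change of -0.20. Leaving out control 1 gave 15 lower, leaving out control 3 gave 7 higher and leaving out treated replicate 1 gave 5 higher genes. With the correction 1 was lower and 5 were higher, against 5.57% and 5.40% of all genes, with a median of -0.02. HSF4, HSBP1, CRYAB, HSPB6 and HSPB11, the 5 related to heat shock factors or small heat shock proteins, did not pass either way (edgeR). TXNDC9, a helper of TRiC, had 8.40, 8.27 and 8.87 CPM in treated libraries, against 23.2, 16.6 and 16.5 CPM in controls. It was lower both ways, at -1.14 ± 0.17 (adjusted p = 0.00014, edgeR) and -0.60 with the correction (0.00744). The prefoldin subunit VBP1 (-0.89), the Hsp90 partner FKBP5 (-0.83) and the mitochondrial protease YME1L1 (-0.67) were the others of the 4 lower genes with the smallest p, and none of the 3 passed with the correction.

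The 4 higher genes with the smallest p were UNC45A, which aids myosin folding (0.56), the ubiquitin ligase STUB1 (0.50), the phosphatase PPP5C (0.45) and DNAJC5, a J-domain protein of secretory vesicles (0.38). With the correction UNC45A was at 0.21, STUB1 at 0.05 and DNAJC5 at 0.10, and none of these 3 passed (adjusted p = 0.116, 0.742 and 0.427, edgeR). PPP5C had 140, 125 and 124 CPM in treated libraries, against 89.2, 101 and 95.2 CPM in controls, and stayed higher with the correction (0.25, adjusted p = 0.0397, edgeR). The other corrected rises were those of AHSA1 (0.31), CLPB (0.51), PMPCA (0.31) and DNAJC19 (0.65), named because the count was 5. AHSA1, which codes for the activator of the Hsp90 ATPase, had 146, 128 and 128 CPM in treated libraries, against 104, 111 and 98.2 CPM in controls. DNAJC19 overlapped between the groups and had a log2 fold change of 0.11 without the correction.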

How the data were processed

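Polyadenylated RNA of 6 libraries was sequenced, 3 of EPZ-5676-treated and 3 of control SW1990 cells, grouped by sample title. Per the labels' protocols, selection was on oligo(dT) beads and the second cDNA strand carried dUTP, so the kit keeps strand information. The submitters' processing notes name HISAT2 2.2.1 and GRCh38. The authors deposited raw read counts per gene, and how they were counted is not stated. All 58735 rows had coordinates of GENCODE release 29. Of the columns of per-sample values, 0 were left unmapped.

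A quasi-likelihood model of these counts was fitted in edgeR 4.0.16 under R 4.3.3 (two-sided and robust; filterByExpr with a minimum count of 10; TMM scaling; Benjamini-Hochberg adjustment over 15496 genes; threshold 0.05). The SE of a log2 fold change is the absolute change over the root of its F statistic. For the GC and length correction, natural splines with 5 degrees of freedom per property of the longest transcript were fitted in each library to the deviation of log2 CPM (prior count 2) from the gene mean and entered as an offset for 15487 genes. The longest transcript was taken whatever its type, and whether these cells use it was not tested. The scripts were tested on simulated data. Without a GC trend, 60 of 100 changes of 2-fold and 32 of 100 changes of 1.5-fold were recovered, with 7 false calls. A GC trend was also put into the simulated treated libraries, its size set and not taken from the data. It gave 5244 false calls without the correction and 3 with it. The trend was a line on the same GC content that the correction fits, so its removal was set in advance. These counts check the script and do not show how the correction acts on the real libraries. Alternatives were scaling by RLE or the upper quartile, filters on the mean CPM or none, DESeq2 1.42.0, a replicate block, a fit of protein-coding genes, and the omission of single libraries. Promoters came from RefSeq windows on GRCh38.p14.

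Values per library are given for members past the threshold and for the most expressed member of each family. Of the further network genes, the 4 with the smallest p each way are named. The members, lists and tests were chosen with earlier results of these data known. TRiC shares with corrected CPM, the summed levels with it, and counts without the second HSPA14 row were added after seeing the data.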

Additional observations from a re-analysis of the deposited data

How the results depend on the processing

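Other scalings, filters, DESeq2 and a fit of protein-coding genes gave 21 or 22 lower and 3 to 5 higher members. Leaving out 1 library gave 17 to 22 lower and 2 to 5 higher members, 1753 to 3167 lower and 1350 to 2780 higher of all genes, and 15 to 22 lower and 5 to 18 higher network genes. The GC and length correction gave 11 lower and 1 higher members, also without the second HSPA14 row, 863 lower and 836 higher of all genes, and 1 lower and 5 higher network genes. With 1 library left out as well, it gave 6 to 10 lower and 0 to 1 higher members, 512 to 815 lower and 397 to 857 higher genes, and 0 to 3 lower and 0 to 5 higher network genes. Corrected CPM moved the differences in log2 ratio (treated minus control) to -0.26 for HSPD1 to HSPE1, -0.42 for HSF2 to HSF1 and -0.37 for BAG3 to BAG1. By its construction the correction removes trends with GC content and length.

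Same-numbered treated and control libraries deviated from their group means with correlations of -0.11, -0.093 and 0.047. With 3 libraries per group, these values cannot show whether same-numbered libraries were handled together. With the replicate block 19 members were lower and 2 higher. With block and correction together 10 members were lower and 1 higher, as were 685 and 688 of all genes and 1 and 4 network genes. The block ended the calls of the second HSPA14 row (adjusted p = 0.07, edgeR), TRAP1 (0.0681), DNAJA2 (0.0681) and FKBP4 (0.0877), and the corrected call of HSP90AA1 (0.0974). FKBP4 also missed the threshold with no filter (0.0548).

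Several members changed direction under the correction. Each is given with the correction, then with correction and block, then as the range with 1 library left out without and with the correction. HSPA1A was at -0.18, -0.18, 0.11 to 0.25 and -0.27 to -0.091. HSPA1B was at -0.16, -0.15, 0.072 to 0.34 and -0.22 to -0.043, and the sum of both at -0.17, -0.17, 0.11 to 0.26 and -0.24 to -0.10. HSPA2 was at 0.038, 0.11, -0.44 to 0.071 and -0.16 to 0.46. HSPB1 was at -0.24, -0.24, 0.11 to 0.26 and -0.26 to -0.21. DNAJA2 was at 0.12, 0.12, -0.39 to -0.24 and 0.071 to 0.16. DNAJB5 was at -0.17, -0.17, -0.0034 to 0.068 and -0.21 to -0.13. HSF1 was at -0.037, -0.038, 0.33 to 0.49 and -0.067 to -0.0052. STIP1 was at -0.13, -0.13, 0.058 to 0.12 and -0.15 to -0.096. BAG1 was at 0.074, 0.077, -0.087 to 0.068 and -0.016 to 0.15, and at 0.020 with RLE size factors and in DESeq2. Of the members that turned in other settings, BAG3 was at 0.0038 with RLE size factors and in DESeq2 and at -0.13 to 0.042 and -0.35 to -0.21 with 1 library left out. HSPB8 was at -0.0044 with correction and block and at 0.098 to 0.25 and -0.050 to 0.096 with 1 library left out. The remaining turns came only with the correction and 1 library left out together. There HSPA8 spanned -0.12 to 0.0069, HSPA4L -0.34 to 0.092, DNAJB1 -0.0098 to 0.083, DNAJB12 -0.062 to 0.075 and CCT3 -0.028 to 0.077. Without the correction HSPA8 spanned -0.29 to -0.12, HSPA4L -0.82 to -0.53, DNAJB1 0.10 to 0.24, DNAJB12 0.18 to 0.31 and CCT3 0.0066 to 0.12. The cause of these turns was not tested. With 3 libraries per group, low genes such as HSPA2 and DNAJB4 rest on few reads.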
